A study of Mus musculus with 15 samples.

Results

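The strongest promoters of resting control islets are 868 ATAC-seq peaks near 866 genes. They were selected on the measured control level and taken from the 7826 peaks that the authors listed in the comparison of genotypes before surgery. A peak was included if it was annotated as a promoter within 1 kb of a transcription start site and had a mean level of 5 or more, in log2 normalised reads per peak, in control islets. They make up 16.39% of the 5295 promoter peaks within 1 kb and 11.09% of all listed peaks. The level in control islets before surgery therefore defined the set and is given only as a description.

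The study profiled islets of 15 male mice aged 3 months by ATAC-seq, where a transposase inserts adapters into DNA that is free of nucleosomes. The KO-labelled mice (Arid1aFl/Fl; MIP-rtTA; TRE-Cre) were set against controls (Arid1aFl/Fl; MIP-rtTA), with 4 KO-labelled and 4 control mice taken 6 days after partial pancreatectomy (PPx) and 3 KO-labelled and 4 control mice before it. All mice carried floxed alleles of Arid1a, which encodes a subunit of SWI/SNF chromatin remodelling complexes, and all received doxycycline at 1 g/L. In the MIP-rtTA and TRE-Cre system the mouse insulin promoter drives the doxycycline-dependent activator, so Cre is directed to beta cells, while the islets also hold other endocrine, vascular and immune cells that keep Arid1a. The only listed Arid1a peak, in an exon, was higher in KO-labelled islets, at 5.49 against 1.21 in controls before PPx and at 4.04 against 0.40 in controls after it, so the groups are called by their label. The tables hold group means and no values per library, so depth and the spread between single mice cannot be given. An implied standard error (SE) was obtained from each deposited fold and p.

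A promoter is the stretch of DNA at which RNA polymerase II is assembled to start transcription. In mammals, promoters of genes used in most cells usually lie in CpG islands, lack a TATA box and stay free of nucleosomes whether or not the cell divides. Widespread promoter elements include the GC box, bound by SP and KLF factors, and the CCAAT box, bound by the trimeric factor NFY, which contacts DNA through histone-like subunits.

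The upstream sequences of 6 of these promoters are shown as examples, and no fold below rests on them. They were picked by name, so their box counts do not stand for the set or for gained promoters. Tubb4b (a beta-tubulin), Paip2b (an inhibitor of poly(A)-binding protein), Cyth2 (an exchange factor for ARF GTPases) and Rab33b (a Golgi GTPase) were among the promoters gained after PPx in KO-labelled islets. Smim7 (a small membrane protein) had the smallest false discovery rate (FDR) of the set in the comparison of genotypes after PPx, and Pgk1 (phosphoglycerate kinase, a glycolytic enzyme) had the lowest fold of the set there. Each line gives the 250 bases that precede the start site on the gene's own strand, from RefSeq on GRCm38.p6 (mm10), with CCAAT and its reverse complement ATTGG in capitals.
Tubb4b, chr2:25224703-25224952, minus strand: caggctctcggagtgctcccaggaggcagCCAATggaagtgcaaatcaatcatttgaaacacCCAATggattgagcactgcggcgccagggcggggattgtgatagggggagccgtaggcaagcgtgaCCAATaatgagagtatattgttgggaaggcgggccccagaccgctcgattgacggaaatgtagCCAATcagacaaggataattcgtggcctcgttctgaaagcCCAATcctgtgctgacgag
Paip2b, chr6:83831742-83831991, minus strand: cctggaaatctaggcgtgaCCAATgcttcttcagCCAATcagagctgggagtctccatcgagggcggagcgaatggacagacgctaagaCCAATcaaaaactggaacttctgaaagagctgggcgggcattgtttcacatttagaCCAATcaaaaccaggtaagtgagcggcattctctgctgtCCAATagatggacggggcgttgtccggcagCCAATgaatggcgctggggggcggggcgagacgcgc
Cyth2, chr7:45814317-45814566, minus strand: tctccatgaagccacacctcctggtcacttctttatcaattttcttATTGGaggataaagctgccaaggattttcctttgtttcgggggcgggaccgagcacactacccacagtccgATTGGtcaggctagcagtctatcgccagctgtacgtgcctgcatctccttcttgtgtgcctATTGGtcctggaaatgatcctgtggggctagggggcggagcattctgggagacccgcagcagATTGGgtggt
Smim7, chr8:72571049-72571298, minus strand: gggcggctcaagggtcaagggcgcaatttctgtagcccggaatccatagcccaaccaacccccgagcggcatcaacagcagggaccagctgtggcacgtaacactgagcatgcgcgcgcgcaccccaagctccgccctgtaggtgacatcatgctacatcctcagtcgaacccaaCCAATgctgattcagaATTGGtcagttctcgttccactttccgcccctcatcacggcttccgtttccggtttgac
Rab33b, chr3:51483716-51483965, plus strand: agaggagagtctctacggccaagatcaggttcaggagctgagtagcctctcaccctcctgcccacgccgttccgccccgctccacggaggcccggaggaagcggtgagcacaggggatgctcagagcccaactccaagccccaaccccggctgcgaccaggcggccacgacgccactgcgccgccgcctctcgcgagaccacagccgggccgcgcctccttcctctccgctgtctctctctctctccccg
Pgk1, chrX:106186850-106187099, plus strand: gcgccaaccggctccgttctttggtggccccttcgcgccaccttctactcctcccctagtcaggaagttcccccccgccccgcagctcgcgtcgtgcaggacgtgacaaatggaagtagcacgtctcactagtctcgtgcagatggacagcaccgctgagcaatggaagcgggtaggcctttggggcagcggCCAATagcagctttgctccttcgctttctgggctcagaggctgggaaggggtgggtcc

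The Paip2b stretch held 6 CCAAT boxes counted over both strands, the Tubb4b stretch 5 and the Cyth2 stretch 4, the last all in the reverse orientation. Among the 632 strongest promoters with a RefSeq start site inside the peak, 5.7% had 4 or more boxes in this stretch. That share was 2.6% of 3156 other promoter peaks within 1 kb and 0.84% of 32851 RefSeq promoters. Smim7 had 2 boxes, Pgk1 had 1 and Rab33b had 0, so the gained promoters shown did not share this element.

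Over a window from 250 bases before to 50 after the start, at least 1 CCAAT box was present in 63.13% of the strongest promoters (399 of 632), against 44.23% of other promoter peaks and 37.41% of all RefSeq promoters. The GC box (GGGCGG) was present in 78.16% of the strongest promoters, against 71.42% and 35.66%. The TATA box (TATAAA) was present in 2.69%, against 5.989% and 13.62%. An ETS motif (CCGGAAG) was found in 17.88% of the strongest promoters, against 20.34% and 8.858%, and an E-box (CACGTG) in 9.019%, against 10.77% and 7.15%. The FOX motif (TGTTTAC), read by the forkhead factors that include Foxa2, was present in 3.323%, against 1.933% and 3.65%. The other 8 motifs searched, for NRF1, CREB (TGACGTCA), YY1 (AAGATGGCG), ZNF143/THAP11, AP-1 (TGANTCA), RFX, E2F (TTTCCCGC) and the CTCF core, were each present in at most 3.481% of the strongest promoters. All motifs were read on both strands. Apart from the CCAAT and ETS letters, which the CTCF core can contain through its N positions, no motif can lie inside another. A match describes letters in a window and not a bound site, and no test was made across promoters.

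The strongest promoters were CpG-rich like the other promoter peaks, with a median observed over expected CpG ratio of 0.813 against 0.804, and 0.384 over all RefSeq promoters. Their median GC content was 63%, against 62% and 52.67%. Their peaks lay further upstream: the median peak centre was 86 bases before the start site, against 42.5 bases before it at the other promoter peaks. Start sites on both strands lay within the peak at 133 of 632 strongest promoters (21.04%), against 545 of 3156 others (17.27%). CCAAT boxes had a median position of -89 relative to the start in the strongest promoters and -80 in the others.

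**Figure D1:**
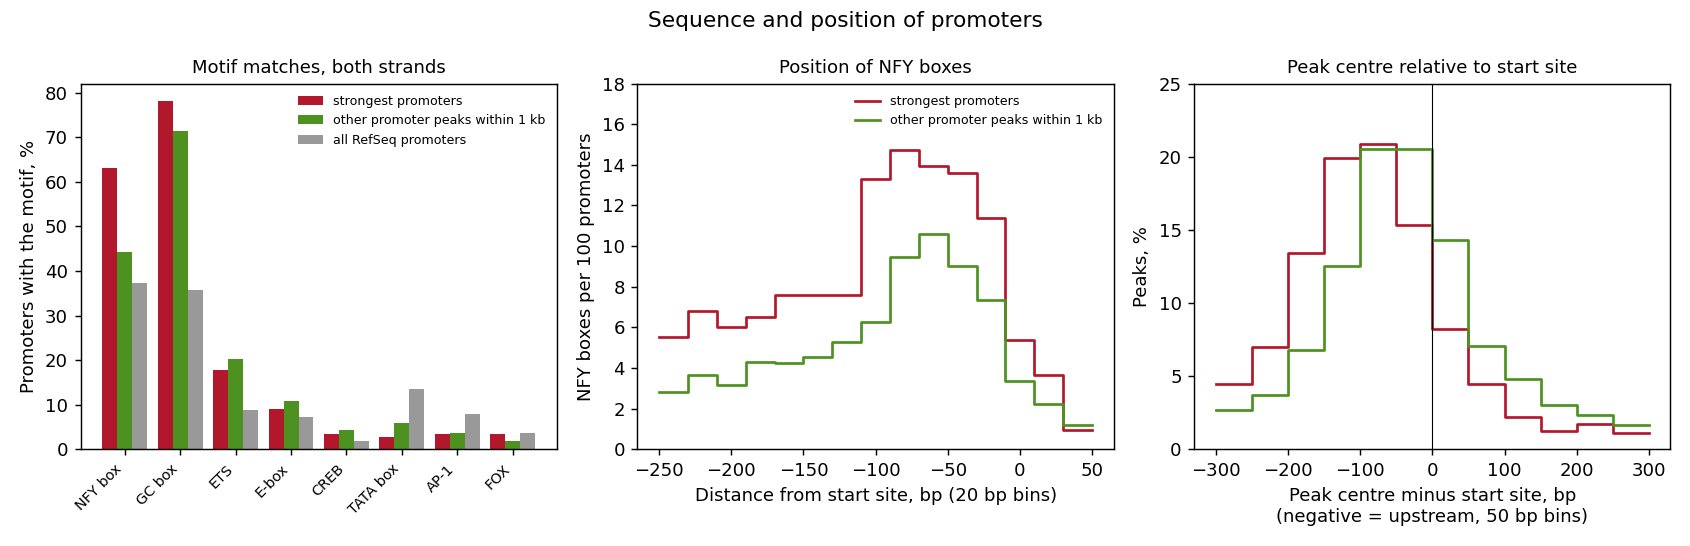
The left panel gives the percentage of promoters with each motif, the middle panel NFY (CCAAT) boxes per 100 promoters by distance from the start site in bp, and the right panel the percentage of peaks by distance of the peak centre from the start site in bp. Red marks the 632 strongest promoters with a RefSeq start site inside, green the 3156 other promoter peaks within 1 kb and grey all RefSeq promoters. The red bar for NFY boxes stands above the green one, and the red line above the green one in all bins but the last, with 63.13% against 44.23% of promoters holding a box, and the red peak centres lie further upstream.

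Most of the strongest promoters lay only slightly above the threshold. Their median level in control islets before PPx was 5.41 (quartiles 5.17 and 5.77), or 42.5 normalised reads per peak, where the threshold of 5 stands for 32 reads. Only 128 reached a level of 6, 12 reached 7 and 4 reached 8. Peak calling was nearly complete, since 843 were called in all of the KO-labelled and control libraries before PPx, against 885 of the 4427 other promoter peaks (19.99%). Calling depends on the read level, which chose the set, so this contrast is only a description. Just inside the threshold lay the promoters of Rchy1 (a ubiquitin ligase), Arl14ep and Fam227b, all at 5.00, among 14 peaks at that value. Just outside lay Stip1 (an Hsp70 and Hsp90 co-chaperone), Zfp418 and Nek3 (a NIMA-related kinase), all at 4.99, among 18 peaks at that value.

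The 4 highest levels belonged to predicted genes: Gm10222 at 15.90, Gm10800 at 15.06, Gm10801 at 12.95 and Gm21738 at 8.77. The Gm10800 and Gm10801 peaks lie in a stretch of chromosome 2 known for satellite repeats in this build, and the Gm10222 peak in a stretch of chromosome 1 known to resemble mitochondrial DNA, so reads of other copies may align there and these levels are uncertain. Hjurp, which encodes the chaperone of the centromeric histone CENP-A, followed at 7.86, with its peak called in 2 of 3 KO-labelled and 3 of 4 control libraries. Gm4076 at 7.77, 4932443L11Rik at 7.72, Khsrp (an RNA-binding splicing and decay factor) at 7.16, Gm13339 at 7.09 and 4932412D23Rik at 7.07 complete the first 10. Whether reads of other copies also align at the Gm21738, Gm4076 and Gm13339 peaks was not tested. In all, 114 of the 868 peaks were assigned to Gm, Rik or Mir genes.

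**Figure D2:**
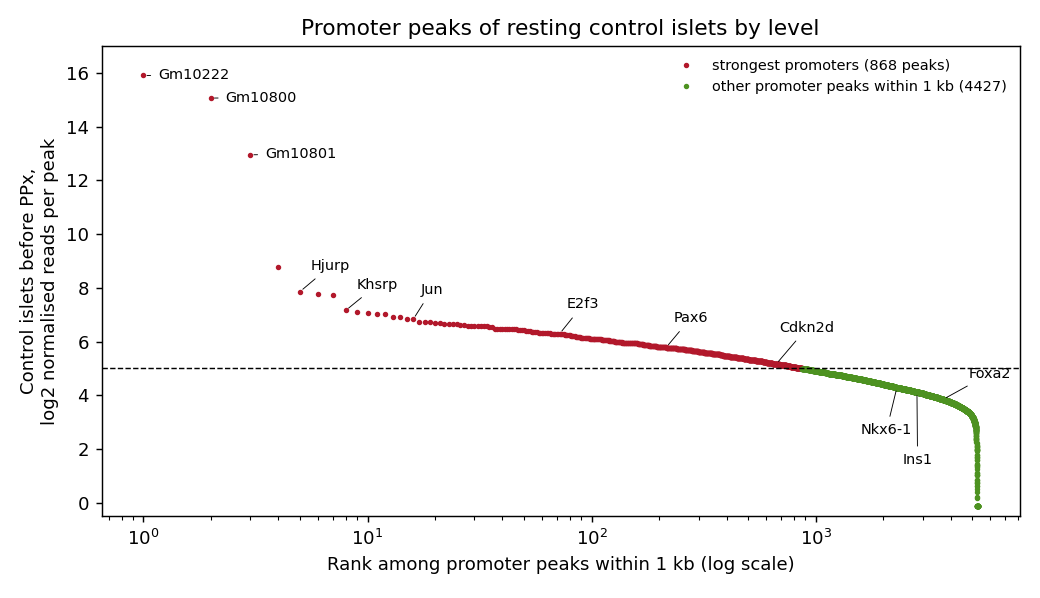
Levels of the 5295 promoter peaks within 1 kb in control islets before PPx, as log2 normalised reads per peak on the vertical axis, by rank on a log scale. Red points are the 868 strongest promoters above the dashed threshold at 5 and green points the other 4427 peaks. A few predicted genes stand far above the rest, and Pax6 lies above the threshold while Nkx6-1, Ins1 and Foxa2 lie below it.

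Of 9 beta cell identity promoters with a peak, 1 reached the threshold (11.11%, beside 16.39% of all promoter peaks within 1 kb): Pax6, a transcription factor of all islet endocrine cells, at 5.78 and rank 214 of 5295. The others lay between 4.40 for St18 and 3.73 for G6pc2 (the islet glucose-6-phosphatase subunit), with Nkx6-1 and Isl1 both at 4.29, Rfx6 at 4.21, Ins1 (an insulin gene) at 4.12 and Foxa2 at 3.85. None of the 9 promoter peaks of insulin granule and exocytosis genes reached 5, the highest being Scg3 (a granule sorting protein) at 4.67. None of the 6 SWI/SNF subunit promoters did either, the highest being Ss18 at 4.95. With so few peaks, counts of 0 and 1 are near that share and say nothing particular about these genes. Of 49 marker genes of other islet and pancreatic cells, 1 had a promoter peak within 1 kb (the alpha cell gene Pou3f4, at 3.38) and 0 were among the strongest. Peaks of any class numbered 3 for alpha, 2 for delta and PP, 3 for stellate and fibroblast and 1 for endothelial markers. They numbered 0 for acinar, ductal, leukocyte and Schwann markers. These counts do not show whether such cells are absent.

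Other lists held between 7.692% and 37.5% of their promoter peaks in the set, beside 16.39% of all promoter peaks. Cell cycle drivers had 6 of 16: E2f3 (an E2F activator) at 6.29, the replicative helicase subunits Mcm3, Mcm4 and Mcm5 at 5.85, 5.72 and 5.18, E2f7 (an E2F repressor) at 5.37 and Ccna2 (cyclin A2) at 5.08. The unfolded protein response and the heat shock and chaperonin lists each had 4 of 11. Cytosolic ribosomal proteins had 7 of 32, the mitochondrial ribosome 5 of 21, splicing factors 7 of 59 and zinc finger (Zfp and Zbtb) genes 27 of 169. The lowest share was that of the proteasome, with Psmc6 (an ATPase of its regulatory particle) as 1 of 13. Among AP-1 and immediate early genes 2 of 8 promoter peaks were included, Jun at 6.83 and Klf6 at 5.86.

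The set largely kept its order in the other groups. Across these promoters, Spearman's rho of the control level before PPx was 0.871 with the KO-labelled level after PPx (n = 867 peaks), 0.887 with the control level after PPx (n = 867) and 0.879 with the KO-labelled level before PPx (n = 868, the same table). These correlations across peaks describe the set, since sites share sequence and read mappability. Of the 867 highest promoter peaks within 1 kb after PPx, 754 (86.97%) in KO-labelled and 752 (86.74%) in control islets belonged to the set. Only Pisd-ps2, a pseudogene, was not listed in the tables with KO-labelled islets after PPx.

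The comparison of genotypes after PPx asks how KO-labelled islets differ from controls once regrowth has been induced, and its libraries played no part in choosing the promoters. In it, 233 of the 867 strongest promoters listed (26.87%) were gained in KO-labelled islets at the authors' FDR of 0.05 and 0 were lost. Over all 13111 listed peaks 9.89% were gained and 0.0839% lost, and among the other promoter peaks within 1 kb 905 of 6784 (13.34%) were gained. Weak peaks often had an FDR of 1 in the authors' deposited table, up to a mean level of 3.5 (peaks with a p of 0.95 or more left aside), and 1293 of the 1297 gained peaks lay above that level. Above that level 15.12% of all peaks and 18.01% of other promoter peaks were gained. A broader opening in each cell and a larger share of cells with the site open cannot be told apart in whole islets.

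The median level was 6.16 in KO-labelled islets and 5.39 in control islets after PPx. A level of 5 or more was found at 866 promoters (99.88%) in KO-labelled islets and at 714 (82.35%) in control islets. The threshold was set in another comparison, and levels of the same libraries differ between comparisons. The control libraries before PPx, which chose the set, reached 5 at 648 of 868 promoters (74.65%) when compared with controls after PPx. The 82.35% is therefore no measure of promoters weakened by PPx. Folds lay above 0 at 860 of 867 promoters (99.19%), beside 97.26% of other promoter peaks and 90.28% of all peaks. The median log2 fold in the authors' deposited table was 0.77 (quartiles 0.67 and 0.88), against 0.70 (0.49 and 0.90) at other promoter peaks and 0.61 over all peaks. That interquartile range, 0.21, was smaller than the median implied SE of 1 promoter, 0.329, and at other promoter peaks the values were 0.41 and 0.385. By the unadjusted p of the authors' deposited table (under 0.05), 664 of these promoters were higher and 1 lower, where 33% of all peaks were higher. With Benjamini-Hochberg adjustment over all listed peaks 68 were gained, beside 4.13% of all peaks. When folds were centred on the table's median, 0 of them were gained, beside 0.0153% of all peaks, and 1 was lost, beside 0.374%.

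The share of gained calls climbed with the level of the peak up to the ninth of 10 bins and was lower in the highest. Promoter peaks were ordered by mean level into 10 bins of about equal size. The share gained was 0% in the lowest bin and the next, 12.7% in the fifth, 30.7% in the ninth and 27.6% in the highest. Over the same bins the median implied SE was 0.329 in the highest and 0.531 in the lowest, and the median fold was 0.78 in the highest and 0.59 in the lowest. The ninth and highest bins held 154 and 709 of the strongest promoters. Within the set, divided into 4 bins from the lowest to the highest control level before PPx, 71, 65, 56 and 41 of 217 promoters were gained. That level also chose the set, so these counts are a description.

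**Figure D3:**
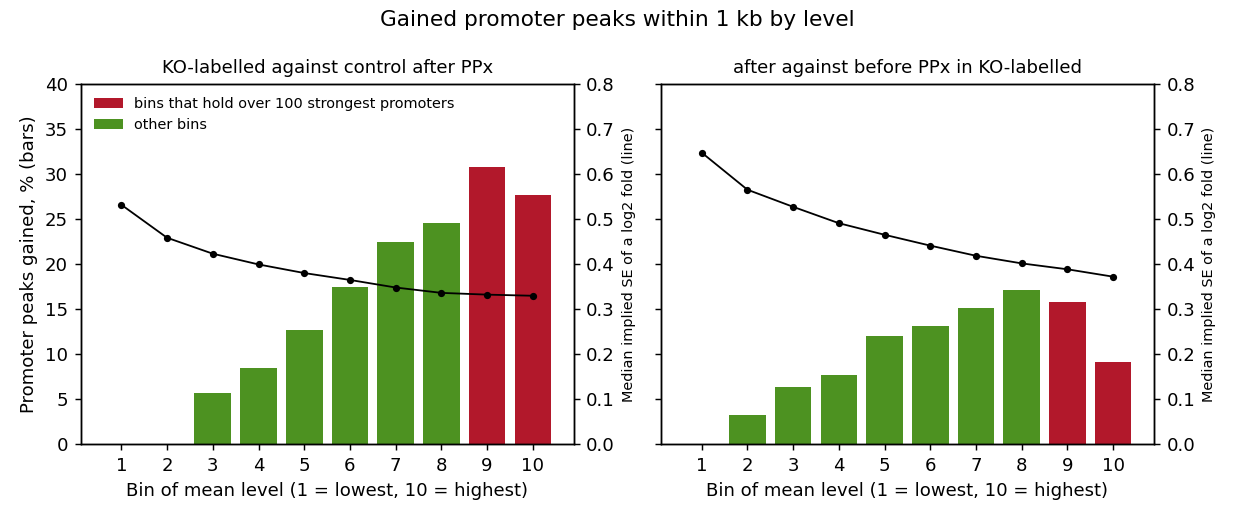
Bars give the percentage of promoter peaks within 1 kb that were gained, in 10 bins of mean level, and the line gives the median implied SE of a log2 fold on the right axis. Red bars mark the bins that hold over 100 of the strongest promoters. After PPx (left) the share climbs to 30.7% in the ninth bin, and in KO-labelled islets after against before PPx (right) it is highest, 17.2%, in the eighth bin. On the right the share is 9.14% in the highest bin, which holds 702 of the strongest promoters.

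The gained promoters of the set with the smallest FDR belong to genes of varied roles. Smim7 had a level of 6.17 in KO-labelled and 4.81 in control islets, given by the authors' deposited table as a log2 fold of 1.36 (FDR 0.0158, implied SE 0.325). Fbxo33, a substrate receptor of SCF ubiquitin ligases, had 6.83 in KO-labelled and 5.54 in control islets, given by the authors' deposited table as a log2 fold of 1.29 (FDR 0.0214). Mrps28, a protein of the small mitochondrial ribosome subunit, had 6.40 in KO-labelled and 5.16 in control islets, given by the authors' deposited table as a log2 fold of 1.25 (FDR 0.0212). These 3 were also among the 4 highest folds of the set. Ppip5k2, a kinase that makes inositol pyrophosphates, had 6.62 in KO-labelled and 5.37 in control islets, given by the authors' deposited table as a log2 fold of 1.25 (FDR 0.0212). Endod1 had 6.10 against 4.87 in control islets, Zfp120 (a zinc finger protein) 6.04 against 4.89, Mex3c (an RNA-binding ubiquitin ligase) 6.64 against 5.55 and Thoc1 (an mRNA export subunit) 6.42 against 5.39. The gained folds in the set ran from 0.79 to 1.36 in the authors' deposited table.

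Counts for genes of protein synthesis stand beside 26.87% of the set and 9.89% of all peaks gained. Of these genes, 4 of the 7 cytosolic ribosomal promoters in the set rose, among them Rpl22l1, Rpl27a and Rps20, by log2 folds of 0.84, 0.92 and 0.97 in the authors' deposited table. Rps19, Rpl7 and Rpl37 were also higher in KO-labelled islets but did not pass, with log2 folds of 0.84, 0.46 and 0.81 in the authors' deposited table. Of 5 mitochondrial ribosome promoters 3 passed, those of Mrps28, Mrpl50 (0.88) and Mrpl39 (0.90) (log2 folds of the authors' deposited table). Of 7 promoters of translation factors and tRNA synthetases 2 passed. These were Mars2 (mitochondrial methionyl-tRNA synthetase) with a log2 fold of 0.88 and Eif2a (an initiation factor) with 0.85 in the authors' deposited table. Eif2ak3, the PERK kinase of the unfolded protein response, is counted with these translation genes by its symbol, and it had 7.42 in KO-labelled and 6.66 in control islets, given by the authors' deposited table as a log2 fold of 0.76 (FDR 0.0749). The median log2 folds of the 3 lists were 0.84, 0.88 and 0.73, beside 0.77 for the set.

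Folds of cell cycle promoters lay on both sides of the set's median. Ccna2 was the only 1 of 6 drivers to pass the FDR of 0.05. It had 5.88 in KO-labelled and 4.90 in control islets, given by the authors' deposited table as a log2 fold of 0.98 (FDR 0.0493). The other 5 were also higher in KO-labelled islets, with log2 folds between 0.41 for Mcm3 and 0.77 for Mcm5 in the authors' deposited table. Cdkn2d, an inhibitor of the cyclin D kinases, was gained, at 6.10 in KO-labelled and 5.16 in control islets, given by the authors' deposited table as a log2 fold of 0.94 (FDR 0.0396). Klf6, a zinc finger factor induced early by growth signals, was gained, at 6.64 in KO-labelled and 5.67 in control islets, given by the authors' deposited table as a log2 fold of 0.97 (FDR 0.0374). Jun, an AP-1 subunit, had 6.94 in KO-labelled and 6.61 in control islets, given by the authors' deposited table as a log2 fold of 0.33 (FDR 0.459, implied SE 0.379), below the median of all peaks. Pax6 had 6.41 in KO-labelled and 5.72 in control islets, given by the authors' deposited table as a log2 fold of 0.69 (FDR 0.103, implied SE 0.340).

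Gained promoters of the lists of protein folding, turnover, energy and RNA are given beside 26.87% of the set and 9.89% of all peaks. Psmc6, the 1 proteasome promoter in the set, rose by a log2 fold of 1.08 (FDR 0.0286) and Hnrnpc, a binder of nascent transcripts and the 1 of 7 splicing promoters that passed, by 0.81 (FDR 0.0475) in the authors' deposited table. Sel1l, a part of the ER degradation machinery and the 1 of 4 unfolded protein response promoters that passed, rose by 0.87 (FDR 0.0471) in the authors' deposited table. Hspe1, the co-chaperonin of mitochondria and the 1 of 4 chaperone promoters that passed, rose by 0.89 (FDR 0.0390) in the authors' deposited table. The respiratory chain list had 1 of 4 (Ndufa4, 0.95), the histones 1 of 3 (H2az2, an H2A.Z variant, 0.99) and the RNA polymerase II and Mediator list 0 of 5 (log2 folds of the authors' deposited table). Zinc finger genes had 10 of 27, with a median log2 fold of 0.76.

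The lowest folds came from 7 promoters below 0, none of them lost at the FDR of 0.05. Pgk1 had 6.68 in KO-labelled and 8.76 in control islets after PPx, a log2 fold of -2.08 with a p of 1 in the authors' deposited table, so no standard error can be implied. AW822073, called in 3 of 4 KO-labelled and 1 of 4 control libraries, had 5.04 in KO-labelled and 5.59 in control islets, given by the authors' deposited table as a log2 fold of -0.55 (FDR 0.193). Litaf, an endosomal membrane protein, had 4.76 in KO-labelled and 5.29 in control islets, given by the authors' deposited table as a log2 fold of -0.53 (FDR 0.164). Mir6236 (-0.64) and the predicted genes Gm21738 (-0.51), Gm10800 (-0.49) and Gm10801 (-0.38) were the others (log2 folds of the authors' deposited table). Khdrbs2, an RNA-binding protein, had a log2 fold of 0.18 in the authors' deposited table. Hjurp and Khsrp had log2 folds of 0.56 (FDR 0.129) and 0.87 (FDR 0.0510) in the authors' deposited table.

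The comparison of KO-labelled islets after and before PPx asks how these islets respond to the operation, and it shares the KO-labelled libraries after PPx with the comparison above. Here 88 of 867 strongest promoters (10.15%) were gained and 0 lost, beside 7.45% gained and 0% lost over all 12767 peaks and 673 of 6790 other promoter peaks (9.91%). Above a mean level of 3.19, the highest at which an FDR of 1 was given on the same count, 9.45% of all peaks and 11.5% of other promoter peaks were gained in the authors' deposited table. The count in the set was thus close to the background. The median level was 6.16 after and 5.39 before PPx, and the median log2 fold in the authors' deposited table was 0.77 (quartiles 0.64 and 0.91), against 0.875 at other promoter peaks and 0.83 over all peaks. Of 867 folds 863 lay above 0 (99.54%), beside 98.79% of other promoter peaks and 97.05% of all peaks. The median implied SE in the set was 0.373. An unadjusted p under 0.05 was found at 503 higher promoters, beside 39.4% of all peaks, and the adjustment over all listed peaks left 44 gained, beside 4.49%. Relative to the table's median, the set lay slightly lower, at -0.06, and 0 of its promoters were called after centring, beside 0% of all peaks. As a description, since that level chose the set, gains were more frequent in promoters of lower control level before PPx. In 4 bins of that level, lowest first, 38, 18, 21 and 11 of 217 were gained. The median log2 fold in the authors' deposited table was 0.85, 0.79, 0.78 and 0.68.

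The gained promoters with the smallest FDR in the set, and those with the highest folds, were as follows. Tubb4b had a level of 5.88 after and 4.39 before PPx, given by the authors' deposited table as a log2 fold of 1.49 (FDR 0.0192, implied SE 0.346). Rab33b had 5.76 after and 4.34 before PPx, given by the authors' deposited table as a log2 fold of 1.42 (FDR 0.0231, implied SE 0.365). Cdc26, a subunit of the anaphase-promoting complex, had 5.95 after and 4.58 before PPx, given by the authors' deposited table as a log2 fold of 1.37 (FDR 0.0299). Paip2b had 6.33 after and 5.00 before PPx, given by the authors' deposited table as a log2 fold of 1.33 (FDR 0.0231). Cyth2 had 5.74 after and 4.45 before PPx, and Rheb, the GTPase that switches on mTORC1, had 5.95 after and 4.67 before, both with a log2 fold of 1.29 in the authors' deposited table. Ankhd1 (1.30), Ccdc146 (1.32) and Hspe1 (1.23) also rose (log2 folds of the authors' deposited table). The gained folds ran from 0.94 to 1.49 in the authors' deposited table. Tubb4b, Rab33b and Cyth2 stood at 4.62, 4.58 and 4.70 in KO-labelled and at 5.06, 5.00 and 5.19 in control islets in the table of genotypes before PPx, all below the threshold of 5 in the KO-labelled group.

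List counts are set beside 10.15% of the set and 7.45% of all peaks gained. Of 4 chaperone promoters 3 passed after PPx in KO-labelled islets. These were Hspe1, Dnajb1 (an Hsp40 co-chaperone) with 1.03 and Tcp1 (a subunit of the cytosolic chaperonin) with 0.98 (log2 folds of the authors' deposited table). The fourth, Hspa8 (the constitutive Hsp70), is given a log2 fold of 1.02 (FDR 0.0507) by the authors' deposited table. Cdkn2d, Psmc6, Edem1 (a lectin of ER degradation), Mrps28, Rps19 and Hnrnpc rose by 1.16, 1.17, 1.07, 1.14, 0.96 and 1.01 (log2 folds of the authors' deposited table). Each was the only gained promoter of its list, and Cdkn2d and Psmc6 were the only promoters of theirs in the set. Zinc finger genes had 5 of 27, and 0 of the 6 cell cycle drivers passed, with E2f3 at a log2 fold of 0.37 (FDR 0.322) and Mcm5 at 0.98 (FDR 0.0712) in the authors' deposited table. Pax6 had 6.43 after and 5.84 before PPx, given by the authors' deposited table as a log2 fold of 0.59 (FDR 0.185). Among the low folds were those at Mir6236 (-0.35), Gm10222 (-0.10), Litaf (-0.02), AW822073 (0.04) and Zik1 (0.20) (log2 folds of the authors' deposited table).

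**Figure D4:**
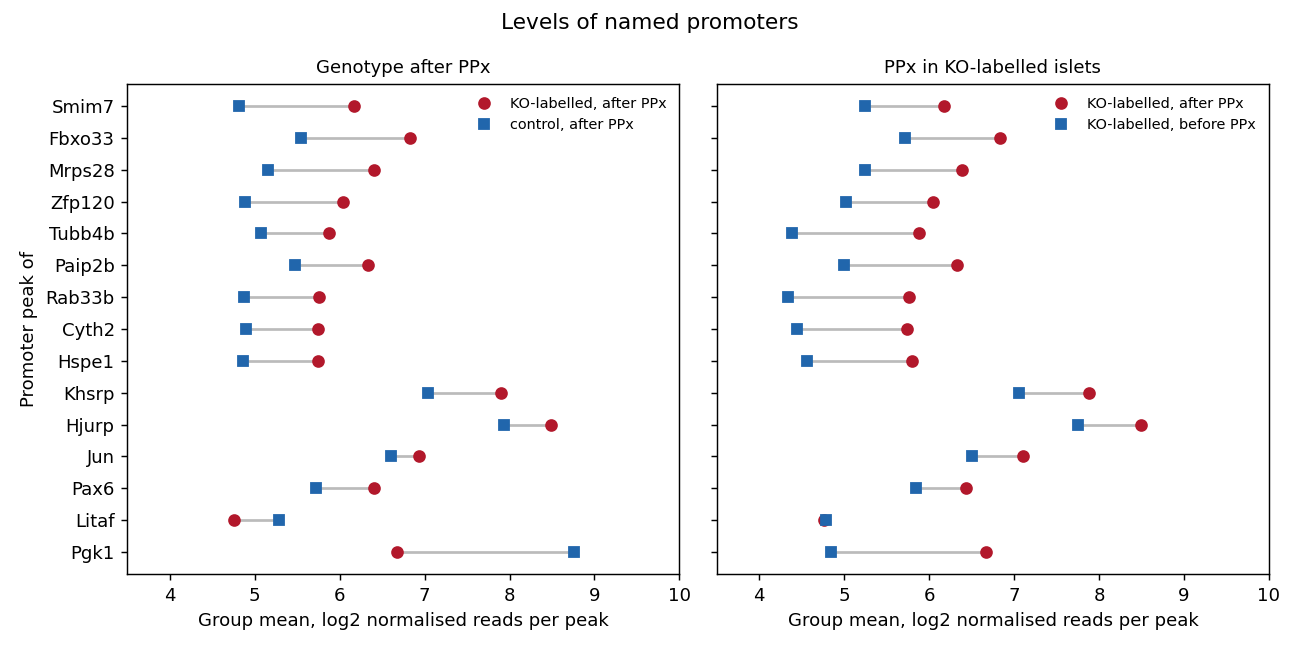
Group mean levels (log2 normalised reads per peak, horizontal axis) of 15 named promoters. Red circles are KO-labelled islets after PPx, and blue squares are control islets after PPx (left) or KO-labelled islets before PPx (right). Smim7 shows the widest gain on the left and Pgk1 the widest difference on the right, where it did not pass, while Pgk1 and Litaf lie lower in KO-labelled than in control islets on the left.

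The 2 remaining comparisons use the control libraries before PPx that chose the promoters, so their values are descriptions. Between genotypes before PPx the median log2 fold in the authors' deposited table was 0.15, against 0.02 at other promoter peaks and 0.00 over all peaks. In the set 637 folds lay above 0 (73.39%) and 214 below, beside 51.14% above 0 at other promoter peaks and 48.93% over all peaks. At the FDR of 0.05, 0 of 868 were called, beside 0.0128% gained over all peaks, and 7 had an unadjusted p under 0.05 (5 higher and 2 lower), beside 66 higher and 180 lower of all 7826 peaks. In controls after against before PPx the median log2 fold in the authors' deposited table was 0.15, against 0.15 at other promoter peaks and 0.16 over all peaks, and 0 of 868 were called, beside 0% over all peaks. The 4 promoters with an unadjusted p under 0.05 in that table were all higher after PPx, beside 2.43% of all peaks. Pgk1 stood apart, with 8.81 after and 4.84 before PPx in controls, a log2 fold of 3.97 with a p of 1 in the authors' deposited table. In KO-labelled islets it had 6.67 after and 4.84 before PPx, a log2 fold of 1.83 (implied SE 0.649, FDR 0.0503), the highest of the set, in the authors' deposited table.

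**Figure D5:**
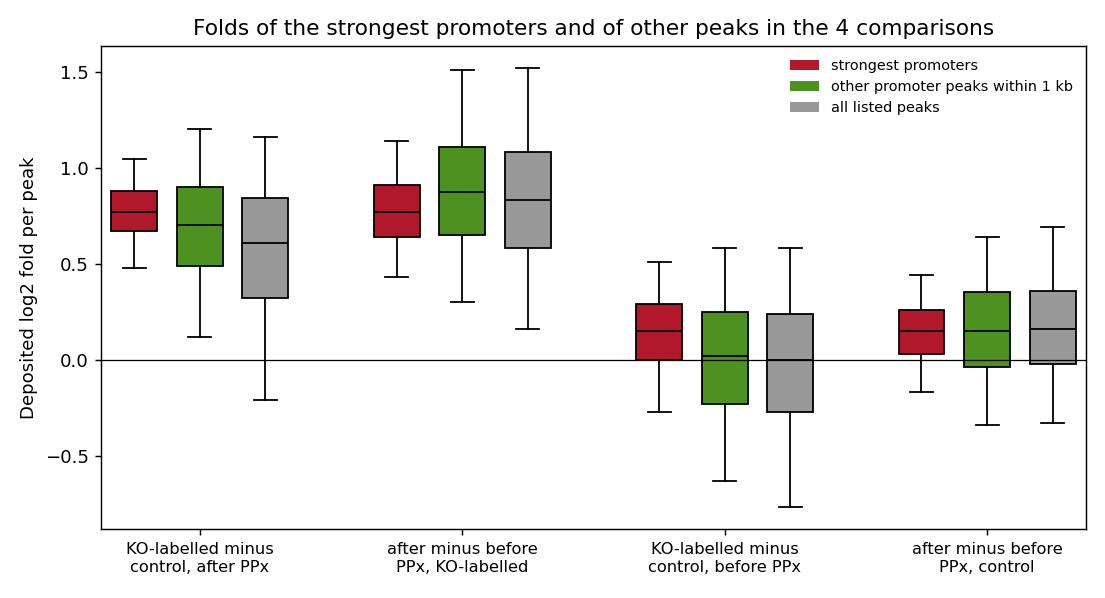
Deposited log2 folds per peak (vertical axis) in the 4 comparisons, for the strongest promoters (red), other promoter peaks within 1 kb (green) and all listed peaks (grey). Boxes show the median and quartiles, and whiskers the 5th and 95th percentiles over peaks. Both comparisons with KO-labelled islets after PPx lie well above 0 for every set of peaks, with medians of 0.77 for the strongest promoters.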

How the data were processed

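Open chromatin was measured in 15 ATAC-seq libraries of 40000 islet cells each, sequenced as 75 bp single-end reads, per the labels' protocols. The submitters' processing notes name cutadapt, BWA, MACS, DiffBind and ChIPseeker and the mm10 build, with no versions. The authors deposited 4 tables of 601 bp peaks with group mean concentrations and folds on the log2 scale. The deposited p-values and FDR come from a test that is not named in the sources used here, nor is the scaling between libraries. The number of libraries with the peak called is a count in the deposited tables. Depth per library is unknown.

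Repeated rows were dropped. Folds were turned round to show KO-labelled over control and after over before PPx. Promoters were followed between tables by an overlap of at least 1 bp (median 579 to 585 bp). Folds and calls were set against their background within each table. Levels from different tables were set beside each other only as a description. A call is an authors' FDR of 0.05 or less. The implied SE is the absolute fold over the normal quantile matching the two-sided p, or the median of 1 of 40 bins of mean level where the fold was under 0.1 or p at least 0.95. The Benjamini-Hochberg adjustment was tested on simulated data and the overlap matching on peaks shifted at random. Motifs were counted in RefSeq promoter sequences (GRCm38.p6, without chromosome 18). Python 3.11.15, pandas 2.3.3, numpy 2.4.6, scipy 1.17.1 and matplotlib 3.10.9 were used.

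The promoters, the 18 gene lists and the marker lists were chosen with earlier results of these data known. Named genes are the 10 highest levels, 3 peaks on each side of the threshold, the 8 smallest FDR and 4 most extreme folds in each direction per comparison, and members of the lists. Mir6236, Gm21738, Gm10800 and Gm10801 as folds below 0, and further list members that passed, were named after their values were seen. Alternatives were other FDR and level thresholds, adjustment over all listed peaks, centred folds, kept duplicates, a larger overlap and 1 peak per gene. A few genes that the rule takes are not reported here.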

Additional observations from a re-analysis of the deposited data

How the results depend on the processing

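The 2 counts of gained promoters depend on the rule. In KO-labelled against control islets after PPx, the 233 calls became 0 at an FDR of 0.01, where the share of all peaks was not counted. They became 68 with Benjamini-Hochberg adjustment over all listed peaks (4.13% of all peaks gained). At an unadjusted p under 0.05 they became 665, of which 664 were higher, beside 33% of all peaks higher. Centred on the table median, 1 call was left, and it was lost rather than gained, beside 0.374% of all peaks lost and 0.0153% gained. With a level threshold of 4.5 there were 492 calls among 1808 promoters listed, and with 5.5 there were 81 among 382. Over all peaks 9.89% were gained at the same FDR of 0.05. In KO-labelled islets after against before PPx, the 88 calls became 0 at an FDR of 0.01 (share of all peaks not counted). They became 44 with the adjustment over all peaks (4.49%) and 503 at an unadjusted p under 0.05 (39.4%). Centred, 0 were left, beside 0% of all peaks. Level thresholds of 4.5 and 5.5 gave 241 calls among 1808 and 23 among 382, beside 7.45% of all peaks. Centring moved the median folds of 0.77 to 0.16 and -0.06. The level thresholds gave 1811 and 382 promoters, of which 1808 and 382 were listed in each table with KO-labelled islets after PPx and 1811 and 382 in that of controls. Kept duplicates, a larger overlap and a promoter annotation in both tables kept both counts within 1.5 times (233 to 299 and 88 to 98), and with these or 1 peak per gene the medians were 0.77 or 0.775 and 0.76 or 0.77. The scaling between libraries is not given, so a rise of all peaks and a difference in signal over background cannot be told apart here.

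Leaving out single libraries was not possible from group means. No paired analysis was possible because the library numbers in the titles are all different and the tables hold group means. Implied SEs near 0.33 log2 units limit what can be called for 1 promoter.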

Other observations

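The strongest promoters were unevenly spread over the chromosomes. On chromosome 19 they were 3 of 106 promoter peaks within 1 kb (2.83%) and on the X chromosome 8 of 230 (3.48%). Chromosomes 2 and 11 had 10.5% and 11.9%. Shares on chromosomes 12, 3 and 1 were 22.5%, 22.1% and 22.1%. After PPx, in libraries that did not choose the promoters, the median level of all promoter peaks was 3.93 in KO-labelled and 3.39 in control islets on chromosome 19, and 4.19 and 3.45 on the X chromosome. On chromosome 1 it was 4.6 in KO-labelled and 3.92 in control islets. All mice were male, so the X chromosome and the autosomes differ in copy number, and its part in these values was not tested.

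Promoter peaks with 0, 1 and 2 or more CCAAT boxes had median levels of 4.81, 4.90 and 4.98 in KO-labelled islets after PPx. Their median log2 folds against controls were 0.75, 0.74 and 0.73.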
